A study of Homo sapiens with 12 samples.

Results

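The 40 genes described here encode the antioxidant enzymes of the cell, the enzymes that make and use glutathione, the thioredoxin system, and the NRF2 switch that is known to control many of them. They were chosen by name for their place in the pathway. The rule uses no measured value, but the list was drawn up with earlier results of these data known. *TXNIP*, an inhibitor of thioredoxin, was left out. All 40 have a row among the 23705 genes of the count table, which names genes by Entrez number, and 39 of them passed the filter on low counts that left 13522 genes for testing. The cells were A375, a single line of human metastatic melanoma cells, grown at passages 30 to 32 and treated for 24 h. The 4 conditions were vehicle (DMSO), 5 µM of RGZ, 2 µM of T0070907 (T007 hereafter), and RGZ with T007 at these concentrations. Both compounds were dissolved in DMSO. RGZ is rosiglitazone, an agonist of the nuclear receptor PPARγ, and T007 is an antagonist of this receptor. Each condition was sequenced in 3 independent experiments, and in each experiment the RNA of technical replicates was pooled into 1 library, so that n is 3 per condition and 12 in all.

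As background, cells remove hydrogen peroxide and lipid peroxides by means of glutathione peroxidases, which draw on glutathione, and peroxiredoxins, which draw on thioredoxin. Both carriers are reduced again at the expense of NADPH, by glutathione reductase and by thioredoxin reductases. The transcription factor NRF2, encoded by *NFE2L2*, is held low by KEAP1, and under oxidative or electrophilic stress it binds antioxidant response elements near genes such as *NQO1*, *HMOX1*, *GCLM* and *TXNRD1*. Melanoma cells can carry a high oxidative load, in part from the synthesis of melanin. In the cells used here, however, the pigment cell genes *PMEL*, *MLANA*, *DCT* and *TYR* had low levels, as given below.

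The promoter windows of 4 members are shown, and no result below rests on these sequences. *MGST1*, *SQSTM1* and *CAT* were called higher with RGZ than with vehicle. *TXNRD1* was called higher with T007, a call that each of the 6 fits leaving out 1 library lost. Other called members, among them *HMOX1*, *NQO1* and *TXNRD2*, are not shown. Each window runs from 250 bases before to 50 bases after a RefSeq transcription start on GRCh38.p14, 5′ to 3′ on the plus strand, on which all 4 genes lie. The windows are chr12:16346865-16347164 for *MGST1* (1 of its 3 windows), chr5:179806143-179806442 for *SQSTM1* (1 of 3), chr11:34438684-34438983 for *CAT* (1 of 1) and chr12:104286782-104287081 for *TXNRD1* (1 of 2). Capitals mark a match, on either strand, to TGACNNNGC followed by A, letters at the core of the antioxidant response element. For a gene with several windows, the one with the most matches is shown. The *MGST1* and *TXNRD1* windows were thus picked because they hold a match.
MGST1: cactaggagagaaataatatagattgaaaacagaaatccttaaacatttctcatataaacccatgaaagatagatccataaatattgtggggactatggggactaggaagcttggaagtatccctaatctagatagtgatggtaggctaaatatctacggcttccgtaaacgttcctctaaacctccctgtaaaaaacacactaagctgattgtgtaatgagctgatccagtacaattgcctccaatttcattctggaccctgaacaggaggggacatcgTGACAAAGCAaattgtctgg
SQSTM1: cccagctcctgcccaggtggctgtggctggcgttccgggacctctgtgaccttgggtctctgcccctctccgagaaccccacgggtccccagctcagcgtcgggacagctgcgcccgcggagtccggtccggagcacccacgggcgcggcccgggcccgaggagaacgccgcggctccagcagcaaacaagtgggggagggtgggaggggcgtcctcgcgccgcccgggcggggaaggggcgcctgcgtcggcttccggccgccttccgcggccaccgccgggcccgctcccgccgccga
CAT: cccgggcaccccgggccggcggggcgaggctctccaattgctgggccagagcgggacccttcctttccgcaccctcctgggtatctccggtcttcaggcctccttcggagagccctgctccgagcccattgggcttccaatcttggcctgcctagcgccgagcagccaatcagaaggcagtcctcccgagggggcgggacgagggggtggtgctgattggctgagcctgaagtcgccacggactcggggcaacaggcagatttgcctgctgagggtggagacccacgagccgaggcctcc
TXNRD1: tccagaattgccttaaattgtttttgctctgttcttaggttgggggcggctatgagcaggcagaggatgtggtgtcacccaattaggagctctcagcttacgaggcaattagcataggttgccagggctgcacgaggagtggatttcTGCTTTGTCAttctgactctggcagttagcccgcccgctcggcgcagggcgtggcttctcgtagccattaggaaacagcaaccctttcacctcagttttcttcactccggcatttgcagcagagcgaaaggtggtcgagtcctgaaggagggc
The *MGST1* match began 30 bases after the start, and the *TXNRD1* match began 103 bases before it and read on the minus strand. The *TXNRD1* window shown lies within the gene, whose annotated start is base 104215779. The *SQSTM1* and *CAT* windows shown held no match, which says only that these letters are not in these windows. RefSeq windows were at hand for 31 of the 40 members, and 7 of them (22.6%) had a match in at least 1 window, namely *GCLM*, *GPX2*, *GSTO1*, *GSTP1*, *KEAP1*, *MGST1* and *TXNRD1*. Of the 51 windows of the 31 members, 7 held a match, so each of these genes had it in 1 window only. Among all 27305 genes with a window the share was 3.94%. TGACNNNGC with any base after it, which every match above also contains, was held by 8 of the 31 members (25.8%) and by 16.1% of all genes. A match is a run of letters and not a measured binding site.

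The libraries held between 8319455 and 11375227 counts, so that 3 counts, the level taken as the floor, stood for 0.258 to 0.371 CPM, which is counts per 1e+06 counts after TMM scaling. Such floors cover counting error only. The members together took 0.914% to 1.16% of the counts of a library. The melanocyte lineage genes *SOX10* (311 CPM) and *MITF* (45.9 CPM) were present in vehicle, as was *VIM* (3545 CPM), a filament gene that most cultured cells express, whereas the pigment cell genes *PMEL* (1.13 CPM), *MLANA* (0.227 CPM), *DCT* (0.0378 CPM) and *TYR* (0 CPM) were low or at the floor. The epithelial, leukocyte and endothelial markers *EPCAM*, *PTPRC* and *PECAM1* stood between 0.117 and 0.195 CPM. The experiment 1 library of the combination stood apart. Its deviations from the mean of its condition correlated with those of the other libraries of its experiment at r of 0.0774 to 0.196 over the tested genes, against 0.336 to 0.747 for all other pairs from the same experiment. Values without that library are given after the comparisons. *FABP4*, a known PPARγ target, had 0.114, 0.119 and 0.118 CPM in the vehicle libraries of experiments 1 to 3, 197, 401 and 167 with RGZ and 1.11, 0.947 and 2.68 with both compounds. *ANGPTL4*, another known target, had 3.41, 5.24 and 8.35 CPM in vehicle, 384, 451 and 449 with RGZ and 5.68, 10.8 and 41.6 with both.

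Scaled to transcript length (the longest one annotated), the levels of the members in vehicle spanned from 0.139 CPM per kb for *GPX2* to 1189 for *FTL*. The 4 highest were *FTL* and *FTH1*, the chains of ferritin, which stores iron (1189 and 847 CPM per kb), the peroxiredoxin *PRDX1* (843) and thioredoxin itself, *TXN* (539). Between 99.6% and 99.9% of the tested genes with a known length were at or below these 4. Next in order were the transferase *GSTP1* (339 CPM per kb) and *PRDX6* (327). At the other end, the mitochondrial superoxide dismutase *SOD2* had 1.99 CPM per kb, the endoplasmic reticulum peroxidase *GPX7* 2.22 and *SESN1* 3.38. *SOD2* has a longest annotated transcript of 14.3 kb, which lowers its value on this scale. The order of neighbours was not tested, and the libraries of many neighbours overlapped: the vehicle libraries of *FTH1* and *PRDX1* did, for example. *GPX2*, the gastrointestinal glutathione peroxidase, had 18 counts over all 12 libraries and at most 0.305 CPM in any of them, and was the member that could not be tested.

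**Figure D1:**
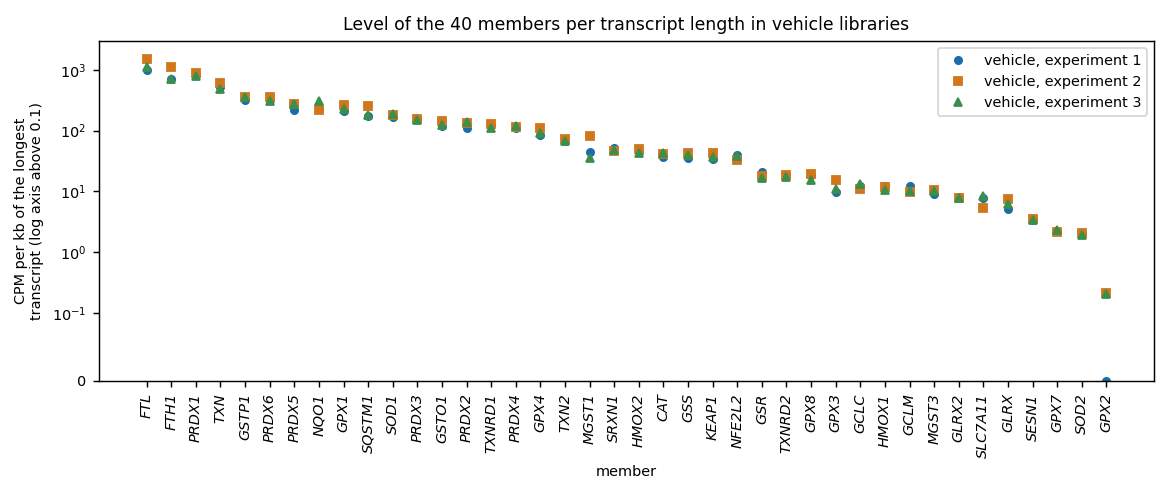
Level of each of the 40 members in the 3 vehicle libraries, in CPM per kb of the longest annotated transcript on a log axis above 0.1, ordered by mean. Each marker is 1 library, and the ferritin chains, *PRDX1* and *TXN* lie highest and *GPX2* lowest.

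In a fit that ignored which experiment a library came from, 0 of the 39 tested members passed an edgeR adjusted p under 0.05 in any of the 6 comparisons. The smallest value was that of *SQSTM1* for RGZ against vehicle (edgeR adjusted p = 0.0743). At an unadjusted p under 0.05 there were 9 members for RGZ against vehicle, 4 for T007 against vehicle, 9 for both compounds against vehicle, 4 for both against RGZ, 11 for both against T007 and 0 for the interaction of the compounds. Of all genes, 10.5%, 3.10%, 10.6%, 13.1%, 14.998% and 3.00% did so in the same order. The members differed between experiments as well as between conditions. For 11 of the 39, over 50% of the variance of log2 CPM over the 12 libraries lay between experiments (3365 of all 13522 genes). In *MGST1* the split was 58.4% of its variance between experiments and 40.8% between conditions. In *CAT* and *SQSTM1* the conditions held 78.4% and 79.7%. The medians were 25.1% between experiments and 44.9% between conditions for the members, against 27.7% and 34.3% for all genes.

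A second fit, with the experiment number as a replicate block, compared the conditions within experiments. The values below come from this fit unless the other is named, and "rose" and "fell" are used only for members that passed an edgeR adjusted p under 0.05 in it. RGZ against vehicle called 9 members (23.1%), of which 7 rose and 2 fell, while 9.3% of all tested genes passed, 4.95% higher and 4.35% lower (1.24% without the block). T007 against vehicle called 3 members (1 rose and 2 fell), where 0.91% of all genes passed, 0.237% higher and 0.673% lower (0.0074% without the block). Both compounds against vehicle called 0 members and 0% of all genes, with or without the block. Both compounds against RGZ called 8 members (5 rose and 3 fell), where 11.4% of all genes passed, 5.55% higher and 5.88% lower (1.24% without the block). Both compounds against T007 called 12 members (11 rose and 1 fell), beside 8.76% of all genes, 4.55% higher and 4.22% lower (0.037% without the block). The interaction, which asks whether RGZ acted differently in the presence of T007, called 0 members and 0.281% of all genes (0% without the block). At an unadjusted p under 0.05 the block gave 4 members (10.3%) for the interaction, close to the 9.79% of all genes, and 23 (59.0%) for both compounds against vehicle, where 21.2% of all genes did so. By another measure, the 3 libraries of both groups did not overlap in CPM for 6 members with RGZ against vehicle (16.8% of all genes) and for 4 with T007 against vehicle (7.67%). For both compounds this held for 6 members against vehicle (12.2% of all genes), 4 against RGZ (17.7%) and 9 against T007 (18.7%). The comparisons share libraries: those with vehicle share the vehicle libraries, and those with the combination share its libraries.

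**Figure D2:**
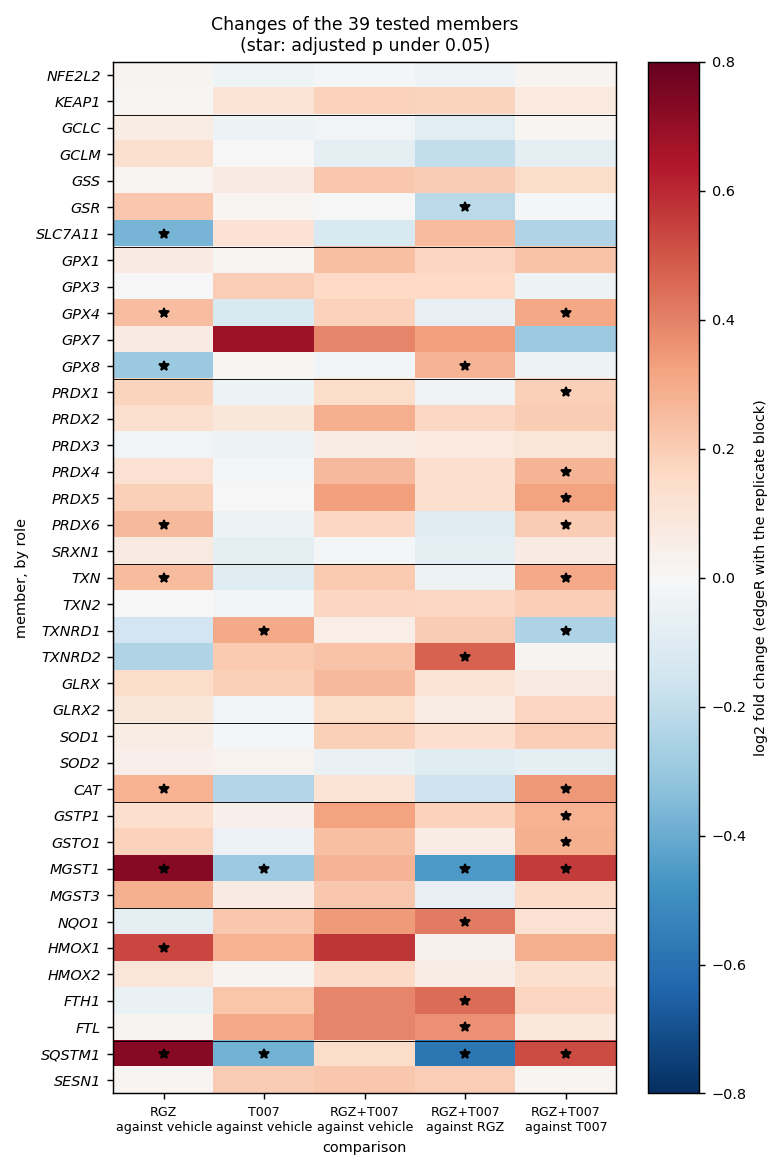
Log2 fold changes of the 39 tested members (rows, grouped by role) in 5 comparisons (columns), from the edgeR fit with the replicate block. Red is higher and blue lower in the condition named first, and a star marks an adjusted p under 0.05. The stars number 9, 3, 0, 8 and 12 from left to right.

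The members that moved with the widest margin were *SQSTM1* and *MGST1*. *SQSTM1* encodes p62, an autophagy adaptor that also binds KEAP1. It had 525, 743 and 534 CPM in the vehicle libraries of experiments 1 to 3, 858, 1283 and 857 with RGZ, 441, 518 and 416 with T007 and 610.2, 739 and 627 with both. The RGZ libraries were all above the vehicle libraries, and the T007 libraries were all below them. *SQSTM1* rose with RGZ (log2 fold change 0.73, SE 0.065, edgeR adjusted p = 6.93e-07), which is 1.66-fold, and the edgeR adjusted p without the block was 0.0743. It fell with T007 (log2 fold change -0.38, SE 0.066, edgeR adjusted p = 0.00667), and this call was lost in 4 of 6 fits that each left out 1 library, namely without vehicle 2, vehicle 3, T007 2 and T007 3 (edgeR adjusted p up to 0.0926). With both compounds it was lower than with RGZ (log2 fold change -0.58, SE 0.065, edgeR adjusted p = 1.02e-05) and higher than with T007 (log2 fold change 0.52, SE 0.066, edgeR adjusted p = 1.43e-04). The levels with both compounds overlapped those in vehicle (log2 fold change 0.15, SE 0.065, edgeR adjusted p = 0.208). The calls for RGZ against vehicle and for both compounds against either compound were kept in 6 of 6 fits leaving out 1 library. Without experiment 3 in every condition, however, the call against T007 was lost (edgeR adjusted p = 0.09997). Of the exonic bases of *SQSTM1*, 22.04% also lie in exons of *MGAT4B* or *MRNIP*, and whether the counting used strand is not given in the sources used here. *SESN1*, the other adaptor, a sestrin linked to the regeneration of peroxiredoxins, lay between 10.96 and 16.4 CPM and passed in 0 of the 6 comparisons.

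*MGST1*, a membrane-bound glutathione transferase that also reduces lipid peroxides, had 94.1, 173 and 76.4 CPM in vehicle, 159, 284 and 126 with RGZ, 78.2, 130.1 and 68.1 with T007 and 121, 189 and 97.6 with both. Experiment 2 was highest and experiment 3 lowest under each condition, and the groups overlapped. Within each experiment the order was the same, with RGZ highest, both compounds next, then vehicle, and T007 lowest. *MGST1* rose with RGZ by 1.66-fold (log2 fold change 0.73, SE 0.063, edgeR adjusted p = 4.8e-07), with log2 ratios of 0.75, 0.71 and 0.72 in experiments 1 to 3. Without the block the edgeR adjusted p was 0.547. It fell with T007 (log2 fold change -0.29, SE 0.065, edgeR adjusted p = 0.0423), and each of the 6 fits leaving out 1 library lost this call (edgeR adjusted p up to 0.330). With both compounds it was lower than with RGZ (log2 fold change -0.46, SE 0.062, edgeR adjusted p = 7.64e-05) and higher than with T007 (log2 fold change 0.56, SE 0.064, edgeR adjusted p = 8.07e-05). Those calls were kept in 6 of 6 such fits, as was that of RGZ against vehicle.

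The other glutathione transferases, which attach glutathione to electrophiles, had smaller fold changes with RGZ. *GSTO1* had 125, 152 and 129 CPM in vehicle, 141, 170.3 and 150.0 with RGZ, 123, 131 and 139.6 with T007 and 166, 149.6 and 164 with both. All libraries with both compounds were above those with T007 (log2 fold change 0.28, SE 0.076, edgeR adjusted p = 0.0304). *GSTP1*, the main cytosolic form in many tumours, also rose between these conditions (log2 fold change 0.28, SE 0.076, edgeR adjusted p = 0.0351). The call of *GSTO1* was lost without T007 1, T007 2, RGZ+T007 1 and RGZ+T007 3, and that of *GSTP1* without T007 1, T007 2, T007 3, RGZ+T007 1 and RGZ+T007 3. The edgeR adjusted p in these fits was up to 0.174 for *GSTO1* and 0.191 for *GSTP1*, whose log2 fold change was 0.14 without RGZ+T007 1. With the correction for transcript length given below, neither passed (log2 fold change 0.088 and edgeR adjusted p = 0.2996 for *GSTO1*, 0.14 and 0.0614 for *GSTP1*). *MGST3*, between 27.6 and 46.9 CPM, passed in 0 of the 6 comparisons (RGZ against vehicle: log2 fold change 0.28, SE 0.13, edgeR adjusted p = 0.218).

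**Figure D3:**
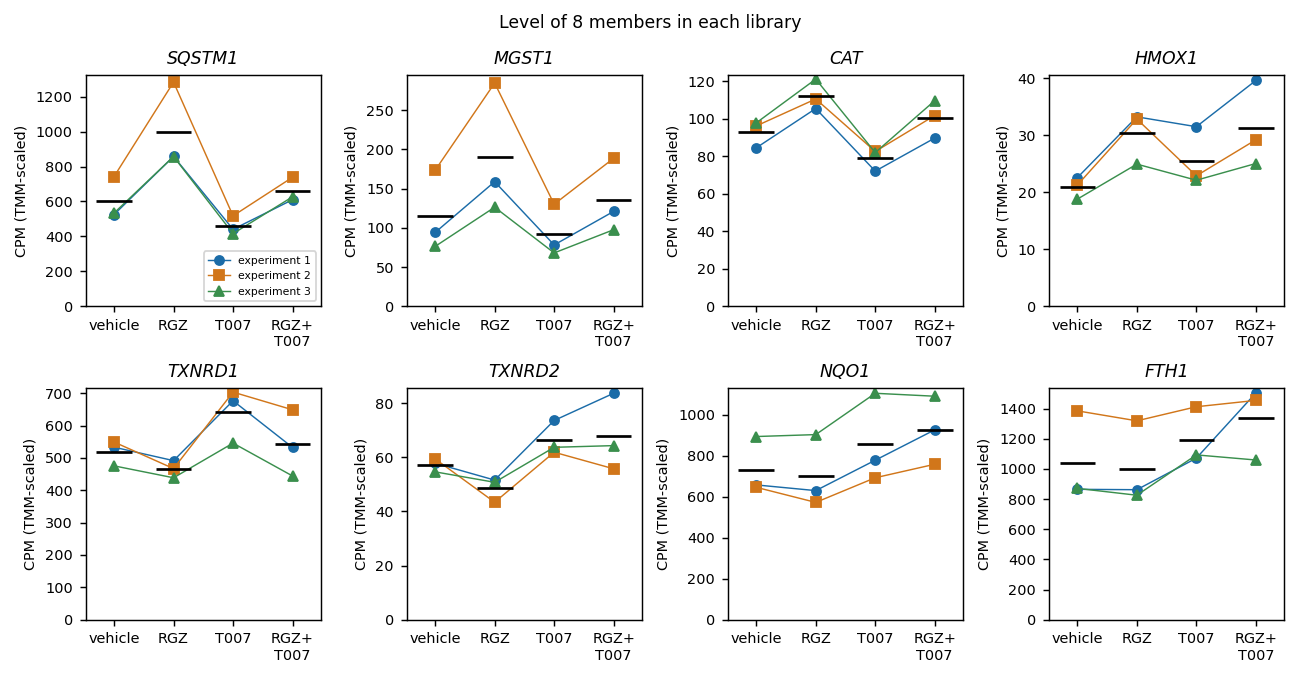
CPM of 8 members in each of the 12 libraries, by condition, with axes starting at 0. Lines join libraries of the same experiment and black bars are means of 3 libraries. *SQSTM1*, *MGST1* and *CAT* are highest with RGZ and lowest with T007 in each experiment.

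*CAT* encodes catalase, which breaks down hydrogen peroxide in peroxisomes. It had 84.5, 96.1 and 97.8 CPM in vehicle, 105, 111 and 121 with RGZ, 72.1, 82.5 and 81.9 with T007 and 89.7, 102 and 109.6 with both. The RGZ libraries were all above and the T007 libraries all below the vehicle libraries. *CAT* rose with RGZ (log2 fold change 0.28, SE 0.058, edgeR adjusted p = 0.00413, 0.263 without the block) in 3 of 3 experiments, and the call was kept in 6 of 6 fits leaving out 1 library but lost without experiment 3 (edgeR adjusted p = 0.167). For T007 against vehicle it was lower in 3 of 3 experiments but did not pass (log2 fold change -0.23, SE 0.059, edgeR adjusted p = 0.0767). *CAT* was higher with both compounds than with T007 (log2 fold change 0.35, SE 0.059, edgeR adjusted p = 0.00255), a call lost without RGZ+T007 3 (edgeR adjusted p = 0.0501) and without experiment 3 (edgeR adjusted p = 0.197). Against RGZ alone the combination did not pass (log2 fold change -0.17, SE 0.058, edgeR adjusted p = 0.0750). The superoxide dismutases, which turn superoxide into hydrogen peroxide, passed in 0 of the 6 comparisons: *SOD1* lay between 287 and 388 CPM and *SOD2* between 24.97 and 31.2 CPM.

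Of the genes for the NRF2 switch, neither passed in any comparison. *NFE2L2* had 112, 92.9 and 108 CPM in vehicle, 107, 93.05 and 118 with RGZ, 101, 95.3 and 109 with T007 and 97.7, 99.4 and 112 with both. Experiment 2 was the lowest in vehicle, RGZ and T007, and the conditions overlapped (RGZ against vehicle: log2 fold change 0.021, SE 0.065, edgeR adjusted p = 0.889). *KEAP1* had 100.4, 124 and 108 CPM in vehicle, 115, 114 and 105 with RGZ, 125, 117 and 116 with T007 and 141, 123 and 115 with both. It was highest in the experiment 1 library of the combination, and the groups overlapped (combination against vehicle: log2 fold change 0.19, SE 0.076, edgeR adjusted p = 0.174). These are levels of RNA, and NRF2 is known to be controlled largely at the level of the protein. Other genes share 20.9% of the exonic bases of *NFE2L2*.

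*NQO1*, a quinone reductase and a standard NRF2 target, had 658, 646 and 894 CPM in vehicle, 629.9, 572 and 903 with RGZ, 778, 693 and 1105 with T007 and 926, 758 and 1091 with both. Experiment 3 was the highest throughout. With both compounds *NQO1* was higher than with RGZ (log2 fold change 0.41, SE 0.060, edgeR adjusted p = 1.44e-04) in 3 of 3 experiments, and 6 of 6 fits leaving out 1 library kept the call. Without the block its edgeR adjusted p was 0.459. RGZ alone against vehicle gave -0.074 (log2 fold change, edgeR adjusted p = 0.514), and T007 alone 0.22 (edgeR adjusted p = 0.122). Of its exonic bases, 17.7% lie in exons of another gene.

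*HMOX1* encodes the inducible heme oxygenase, which degrades heme and releases iron. It had 22.6, 21.3 and 18.8 CPM in vehicle, 33.3, 32.9 and 24.97 with RGZ, 31.5, 22.9 and 22.1 with T007 and 39.7, 29.2 and 25.1 with both. The RGZ libraries and the libraries with both compounds were all above the vehicle libraries. *HMOX1* rose with RGZ by 1.45-fold (log2 fold change 0.54, SE 0.10, edgeR adjusted p = 0.00185), which was 0.294 as adjusted p without the block, and the call was kept in 6 of 6 fits leaving out 1 library. The combination against vehicle had a similar size but did not pass (log2 fold change 0.57, SE 0.10, edgeR adjusted p = 0.0959), and 0 genes of all those tested passed there. Against T007 alone the combination gave 0.29 (log2 fold change, edgeR adjusted p = 0.0648). The constitutive heme oxygenase *HMOX2* lay between 91.9 and 116 CPM and passed in 0 of the 6 comparisons.

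The ferritin chains differed between the combination and RGZ. *FTH1*, the heavy chain, had 865, 1386 and 871 CPM in vehicle, 863, 1319.7 and 826 with RGZ, 1072, 1413 and 1094 with T007 and 1505, 1455 and 1059.7 with both. *FTL*, the light chain, had 869.7, 1295 and 968 CPM in vehicle, 926, 1334 and 929 with RGZ, 1178, 1412 and 1235 with T007 and 1467, 1464 and 1129.6 with both. In vehicle and with RGZ, experiment 2 was far above the others, but with both compounds experiment 1 reached the level of experiment 2. *FTH1* was higher with both compounds than with RGZ (log2 fold change 0.44, SE 0.10, edgeR adjusted p = 0.00586), a call lost without RGZ 1 (edgeR adjusted p = 0.0641). *FTL* was higher too (log2 fold change 0.37, SE 0.087, edgeR adjusted p = 0.01000), and its call was lost without RGZ 1 and RGZ 3 (edgeR adjusted p up to 0.0917). Without RGZ+T007 1 the log2 fold changes were 0.25 for *FTH1* and 0.21 for *FTL*. The log2 ratios of *FTH1* were 0.80, 0.14 and 0.36 in experiments 1 to 3. Exons of *BEST1* on the opposite strand cover 62.4% of the exonic bases of *FTH1*. Both ferritin genes have processed pseudogenes, as do *PRDX1* and *TXN*, and how reads matching several places were counted is not given in the sources used here.

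In the thioredoxin system, *TXN* had 454, 534 and 418 CPM in vehicle, 535, 619.6 and 518 with RGZ, 417, 475 and 420.1 with T007 and 586, 535 and 497 with both. It was higher with RGZ than with vehicle in 3 of 3 experiments, although the groups overlapped, and all its libraries with both compounds were above those with T007. *TXN* rose with RGZ (log2 fold change 0.25, SE 0.065, edgeR adjusted p = 0.0173), a call lost without vehicle 1, vehicle 3, RGZ 2 and RGZ 3 (edgeR adjusted p up to 0.140). It rose with both compounds against T007 (log2 fold change 0.30, SE 0.065, edgeR adjusted p = 0.0118), lost without T007 1, T007 2 and RGZ+T007 3 (edgeR adjusted p up to 0.108) and with the correction for transcript length given below (log2 fold change 0.083, edgeR adjusted p = 0.201). *TXN2*, the mitochondrial thioredoxin, lay between 111 and 151 CPM and passed in 0 of the 6 comparisons.

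*TXNRD1*, the cytosolic thioredoxin reductase, had 533, 549 and 475 CPM in vehicle, 492, 467 and 439 with RGZ, 677, 703 and 546 with T007 and 532, 649 and 444 with both. Experiment 3 was the lowest under each condition, and within each experiment T007 was the highest. *TXNRD1* was the member that rose with T007 (log2 fold change 0.30, SE 0.069, edgeR adjusted p = 0.0448), but each of the 6 fits leaving out 1 library lost the call (edgeR adjusted p up to 0.248). It fell with both compounds against T007 (log2 fold change -0.25, SE 0.068, edgeR adjusted p = 0.0347), a call lost without T007 1, T007 2, RGZ+T007 1 and RGZ+T007 3 (edgeR adjusted p up to 0.188). RGZ against vehicle did not pass (log2 fold change -0.15, SE 0.069, edgeR adjusted p = 0.199).

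*TXNRD2*, the mitochondrial reductase, had 57.8, 59.4 and 54.6 CPM in vehicle, 51.6, 43.4 and 50.8 with RGZ, 73.6, 61.9 and 63.7 with T007 and 83.6, 55.7 and 64.3 with both. All RGZ libraries were below all vehicle libraries, and all T007 libraries were above them. *TXNRD2* was higher with both compounds than with RGZ by 1.39-fold (log2 fold change 0.47, SE 0.091, edgeR adjusted p = 0.00206, 0.130 without the block), and 6 of 6 fits leaving out 1 library kept the call. Neither RGZ (log2 fold change -0.24, SE 0.093, edgeR adjusted p = 0.128) nor T007 (log2 fold change 0.21, SE 0.090, edgeR adjusted p = 0.437) passed against vehicle. The glutaredoxins *GLRX* (17.5 to 30.3 CPM) and *GLRX2* (41.4 to 55.1 CPM), which use glutathione to reduce disulfides, passed in 0 of the 6 comparisons.

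Among the 7 genes of the peroxiredoxin group, 1 rose with RGZ against vehicle and 4 rose with both compounds against T007. None fell in this fit. Of all genes, 4.95% and 4.55% were called higher in these comparisons. The 4 calls against T007 were lost with the correction for transcript length given below. That correction also called *PRDX1* and *PRDX6* for both compounds against RGZ, where their mean CPM was lower (1153 against 1175, and 641 against 686). *PRDX6*, the form that uses glutathione, had 555, 625 and 538 CPM in vehicle, 655, 747 and 657 with RGZ, 535, 576 and 558 with T007 and 671, 631 and 623 with both. The RGZ libraries were all above the vehicle libraries, and the libraries with both compounds were all above those with T007. *PRDX6* rose with RGZ (log2 fold change 0.26, SE 0.058, edgeR adjusted p = 0.00605), lost without vehicle 3 and RGZ 2 (edgeR adjusted p up to 0.0674). Against T007, both compounds gave higher *PRDX6* (log2 fold change 0.21, SE 0.058, edgeR adjusted p = 0.0368). *PRDX1*, the abundant cytosolic form, was higher as well (log2 fold change 0.19, SE 0.058, edgeR adjusted p = 0.0480). *PRDX4*, of the endoplasmic reticulum, differed likewise (log2 fold change 0.27, SE 0.075, edgeR adjusted p = 0.0367), and so did *PRDX5* (log2 fold change 0.32, SE 0.095, edgeR adjusted p = 0.0434). The calls of *PRDX4*, *PRDX5* and *PRDX6* in this comparison were lost without T007 1, T007 2, RGZ+T007 1 and RGZ+T007 3, and that of *PRDX1* was kept in 1 of 6 such fits. Over these fits the adjusted p was up to 0.216 for *PRDX1*, 0.219 for *PRDX4*, 0.209 for *PRDX5* and 0.192 for *PRDX6*. Without RGZ+T007 1 the log2 fold changes were 0.13 for *PRDX1*, 0.16 for *PRDX4* and 0.17 for *PRDX5*.

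The other members of this group did not pass. *PRDX2* and the mitochondrial *PRDX3* passed in 0 of the 6 comparisons, at 189 to 281 and 327 to 367 CPM. *SRXN1* encodes sulfiredoxin, which repairs over-oxidised peroxiredoxins and is a known NRF2 target. It had 142, 126 and 129.6 CPM in vehicle, 140.5, 142 and 135 with RGZ, 137, 114 and 126 with T007 and 150.1, 117 and 129 with both. The conditions overlapped, and RGZ against vehicle gave 0.074 (log2 fold change, SE 0.065, edgeR adjusted p = 0.550). In the GENCODE annotation of GRCh38, an overlapping gene on its strand shares 84.95% of the exonic bases of *SRXN1*. For *PRDX1* and *PRDX2* the share is 24.9% and 14.1%. Whether the annotation used for counting held these overlapping genes is not given, so how far the counts are affected is uncertain.

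Of the glutathione peroxidases, *GPX4* and *GPX8* passed. *GPX4*, which reduces lipid peroxides in membranes and is known for holding back ferroptosis, had 99.7, 129 and 106 CPM in vehicle, 124, 147 and 126 with RGZ, 92.6, 113 and 101 with T007 and 134, 123 and 122 with both. Its RGZ libraries were higher than vehicle in 3 of 3 experiments, with overlap between groups. *GPX4* rose with RGZ (log2 fold change 0.25, SE 0.074, edgeR adjusted p = 0.0421), a call kept in 1 of 6 fits leaving out 1 library (edgeR adjusted p up to 0.231). It rose with both compounds against T007 (log2 fold change 0.31, SE 0.074, edgeR adjusted p = 0.0214), lost without T007 1, T007 2, RGZ+T007 1 and RGZ+T007 3 (edgeR adjusted p up to 0.149) and with the correction for transcript length given below, and its log2 fold change was 0.20 without RGZ+T007 1.

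*GPX8*, of the endoplasmic reticulum membrane, had 63.5, 65.6 and 53.4 CPM in vehicle, 53.4, 53.4 and 41.7 with RGZ, 63.4, 62.8 and 57.5 with T007 and 59.8, 68.05 and 51.7 with both. It was lowest with RGZ in each experiment. *GPX8* fell with RGZ (log2 fold change -0.30, SE 0.072, edgeR adjusted p = 0.0115), lost without vehicle 3, RGZ 2 and RGZ 3 (edgeR adjusted p up to 0.0910). With both compounds it was higher than with RGZ (log2 fold change 0.27, SE 0.071, edgeR adjusted p = 0.0180), lost without RGZ 2, RGZ 3 and RGZ+T007 2 (edgeR adjusted p up to 0.122). *GPX1* (239 to 357 CPM), the secreted *GPX3* (16.9 to 32.4 CPM) and *GPX7* passed in 0 of the 6 comparisons. *GPX7* had the largest log2 fold change of the members for T007 against vehicle, 0.68, on levels of 2.28 to 5.17 CPM over all libraries (SE 0.22, edgeR adjusted p = 0.233).

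Of the genes that supply glutathione, *SLC7A11* encodes the cystine importer, whose cystine limits the synthesis. It had 73.8, 50.9 and 81.5 CPM in vehicle, 58.1, 40.8 and 60.1 with RGZ, 75.8, 60.2 and 86.8 with T007 and 65.1, 59.00 and 62.8 with both. Experiment 2 was the lowest under each condition, and RGZ was the lowest condition within each experiment. *SLC7A11* fell with RGZ (log2 fold change -0.37, SE 0.090, edgeR adjusted p = 0.0117), a call lost without vehicle 1, vehicle 3, RGZ 2 and RGZ 3 (edgeR adjusted p up to 0.126). The antisense gene *SLC7A11-AS1* covers 8.97% of its exonic bases.

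*GSR*, glutathione reductase, was lower with both compounds than with RGZ (log2 fold change -0.22, SE 0.067, edgeR adjusted p = 0.0468), a call kept in 1 of 6 fits leaving out 1 library (edgeR adjusted p up to 0.166). For RGZ against vehicle *GSR* did not pass (log2 fold change 0.22, SE 0.068, edgeR adjusted p = 0.0521). *GCLM*, the regulatory subunit of the enzyme that makes γ-glutamylcysteine, had 60.5, 46.5 and 50.01 CPM in vehicle, 62.5, 55.8 and 52.8 with RGZ, 64.9, 47.4 and 46.3 with T007 and 53.98, 52.1 and 42.97 with both. Its groups overlapped and 0 of the 6 comparisons passed (RGZ against vehicle: log2 fold change 0.13, SE 0.082, edgeR adjusted p = 0.397). The catalytic subunit *GCLC* (40.7 to 51.7 CPM) and the glutathione synthetase *GSS* (103 to 140.4 CPM) passed in 0 of the 6 comparisons either.

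RGZ against vehicle and both compounds against T007 ask about RGZ in the absence and in the presence of the antagonist, and share no library. Of the 9 members called in the former and the 12 in the latter, 6 were called in both, namely *GPX4*, *MGST1*, *TXN*, *CAT*, *SQSTM1* and *PRDX6*. These are 66.7% of the former list and 50% of the latter, and all 6 rose in both. For all genes, 410 were called in both, which is 32.6% of the 1258 called without T007 and 34.6% of the 1185 called with it, and 409 of them moved in the same direction. With the correction for transcript length given below, 3 members (*MGST1*, *CAT* and *SQSTM1*) were called in both, which is 30% of 10 and 60% of 5, beside 28.6% and 46.5% for all genes with a length. The log2 fold changes of *MGST1* were 0.73 without and 0.56 with T007, and those of *SQSTM1* 0.73 and 0.52. For *CAT* they were 0.28 and 0.35. The test of the difference itself gave an interaction of -0.17 for *MGST1* (SE 0.090, edgeR adjusted p = 0.563), -0.20 for *SQSTM1* (SE 0.092, edgeR adjusted p = 0.488) and 0.070 for *CAT* (SE 0.083, edgeR adjusted p = 0.821). None passed, which does not show that RGZ acted alike.

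The combination against vehicle called 0 members, although 32 of 39 had a log2 fold change above 0 and the median was 0.19 (-0.0012 over all genes). The medians of the members in experiments 1 to 3 were 0.32, 0.045 and 0.21, with 32, 23 and 30 members higher. The shift was thus small in experiment 2. Changes with the combination also moved with transcript length. The longest transcripts of the tested members had a median of 2277 nt, against 3655 nt for 13305 tested genes, so the members are short. Spearman's rho between length and the log2 ratio of the combination to vehicle, over these genes, was -0.513, 0.0536 and -0.422 in experiments 1 to 3. These are correlations across genes of the same libraries. For RGZ against vehicle they were -0.213, -0.081 and -0.193, and for the combination against T007 -0.517, -0.21 and -0.292. The combination against RGZ gave -0.395, 0.110 and -0.221, and T007 against vehicle -0.051, 0.255 and -0.180. With a correction for length, a step added after this relation was seen, the median of the members for the combination against vehicle was 0.065 and 1 member, *NQO1*, was called. The same fit called 0.0902% of all genes with a length there.

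**Figure D4:**
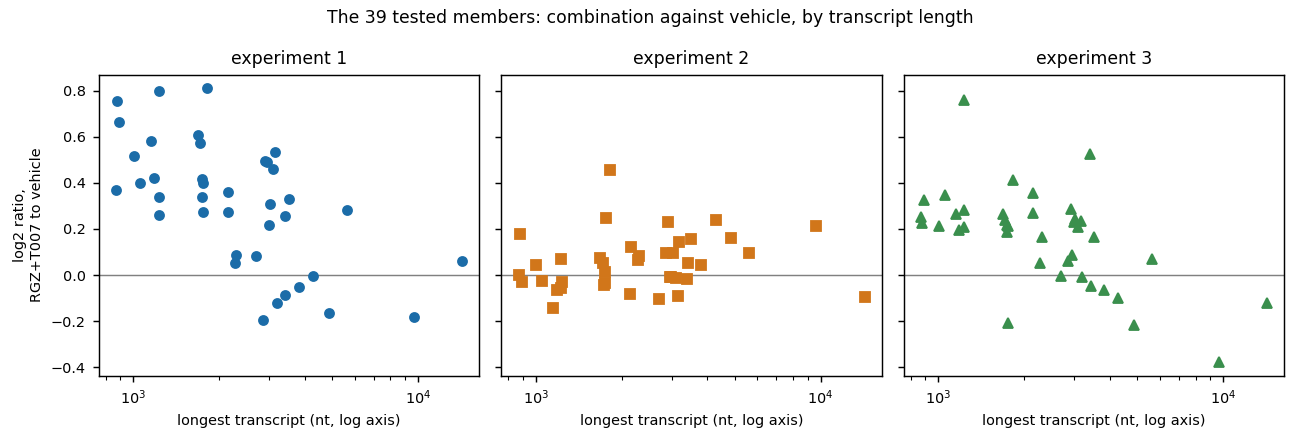
Log2 ratio of the combination to vehicle for the 39 tested members against transcript length (the longest annotated, nt, log axis), in experiments 1 to 3. Each marker is a gene. Short transcripts lie mostly above 0 in experiments 1 and 3, where the member medians were 0.32 and 0.21, and around 0 in experiment 2.

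The same correction changed the calls of the combination against T007 from 12 to 5 members (7.41% of all genes with a length), of which *MGST1*, *SQSTM1*, *CAT* and *TXNRD1* were also called without it and *GLRX2* was not. *PRDX1* went to a log2 fold change of 0.011 (edgeR adjusted p = 0.905), *TXN* to 0.083 (edgeR adjusted p = 0.201) and *GPX4* to 0.12 (edgeR adjusted p = 0.136). *PRDX4*, *PRDX5*, *PRDX6*, *GSTP1* and *GSTO1* lost their calls as well, with adjusted p of 0.0614 to 0.477. For RGZ against vehicle the 9 calls were all kept, and *GSR* was added (12.03% of all genes). The log2 fold changes there were 0.70 for *MGST1*, 0.72 for *SQSTM1* and 0.25 for *CAT*. For T007 against vehicle 7 members were called, among them *CAT*, *NQO1*, *FTH1* and *FTL* beside those called without the correction, and 1.75% of all genes passed. For the combination against RGZ the calls went from 8 to 16 members, 8 higher and 8 lower, beside 14.4% of all genes. The 8 called without the correction were all among them, and *SLC7A11*, *GPX4*, *GSS*, *PRDX1*, *TXN*, *TXNRD1*, *CAT* and *PRDX6* were added. Of the added members, *GPX4*, *PRDX1*, *TXN*, *CAT* and *PRDX6* had a lower mean CPM with the combination than with RGZ. *SLC7A11*, *GSS* and *TXNRD1* had a higher one.

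Without the experiment 1 library of the combination, the block called 4 members for the combination against T007 (*TXN*, *CAT*, *MGST1* and *SQSTM1*), 8 for the combination against RGZ, and 1 (*NQO1*) for the combination against vehicle. The shares of all genes in these fits were 4.67%, 9.10% and 0.0510%. Without the experiment 2 library of the combination, in contrast, the calls were 21, 15 and 24 members, and those of all genes rose as well, to 24.5%, 18.9% and 19.0%.

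Of 50 other genes of the pathway, such as metallothioneins, small MAF partners of NRF2 and enzymes that supply NADPH or cysteine, all were tested. RGZ against vehicle called 3 of them (6%, against 9.3% of all genes), 1 higher and 2 lower. Both compounds against RGZ called 10 (20%, against 11.4%), 7 higher and 3 lower. Both against T007 called 3 (6%, against 8.76%), 2 higher and 1 lower. T007 against vehicle, both against vehicle and the interaction called 0 each. Without the block, *MT1X* and *CBS* were called lower with RGZ than with vehicle and higher with both compounds than with RGZ, and no other gene of the 50 was called.

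*MT1X*, a metallothionein, had 13.7, 17.7 and 13.9 CPM in vehicle, 8.63, 8.45 and 8.22 with RGZ, 18.1, 18.98 and 15.7 with T007 and 19.1, 15.5 and 13.9 with both. All its RGZ libraries were below all others. It fell with RGZ (log2 fold change -0.84, SE 0.13, edgeR adjusted p = 3.29e-04, 0.0215 without the block) and was 1.90-fold higher with both compounds than with RGZ (log2 fold change 0.93, SE 0.13, edgeR adjusted p = 1.05e-04). *CBS*, which leads homocysteine toward cysteine, had 64.7, 67.7 and 60.5 CPM in vehicle, 45.4, 48.5 and 42.6 with RGZ, 73.4, 80.7 and 81.5 with T007 and 73.5, 65.6 and 58.8 with both, and its RGZ libraries were also below all others. *CBS* fell with RGZ (log2 fold change -0.50, SE 0.081, edgeR adjusted p = 4.26e-04, 0.0225 without the block).

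*MAFK*, a small MAF protein that pairs with NRF2 on DNA, had 26.7, 32.4 and 22.8 CPM in vehicle, 39.5, 43.8 and 34.8 with RGZ, 26.1, 30.97 and 20.2 with T007 and 24.8, 29.9 and 24.3 with both. It was the gene of the 50 that rose with RGZ (log2 fold change 0.53, SE 0.083, edgeR adjusted p = 2.78e-04), and it was lower with both compounds than with RGZ (log2 fold change -0.58, SE 0.083, edgeR adjusted p = 1.28e-04). With both compounds against RGZ, *MT2A*, another metallothionein, rose (log2 fold change 0.48, SE 0.10, edgeR adjusted p = 0.00436), as did *IDH1*, a cytosolic source of NADPH (log2 fold change 0.28, SE 0.063, edgeR adjusted p = 0.00619). *ABCC1*, an exporter of glutathione conjugates, fell in that comparison (log2 fold change -0.35, SE 0.090, edgeR adjusted p = 0.0155).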

How the data were processed

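RNA of A375 cells was sequenced in 12 libraries (TruSeq, Illumina HiSeq). The authors deposited 1 table of raw counts per Entrez gene, not normalized. Per the labels the genome build was hg19, while the aligner, the counter and its use of strand are not given in the sources used here. Symbols and transcript lengths came from GENCODE and RefSeq tables. Exon overlaps between genes were taken from GENCODE on GRCh38, which may differ from the hg19 annotation used for counting. Counts were scaled by TMM and given as CPM. Genes that passed filterByExpr (13522) were tested with edgeR 4.0.16 quasi-likelihood F tests in R 4.3.3 over all 12 libraries and 6 comparisons, with Benjamini-Hochberg adjustment over all tested genes. A term for the experiment was the alternative of most weight, because the series' design makes the number an independent experiment. Deviations of libraries with the same number correlated at a mean r of 0.539 (0.0774 to 0.747), and the block lowered the common dispersion from 0.0193 to 0.00333. Log2 ratios per experiment used a prior count of 0.5. DESeq2 1.42.0 and limma-voom (limma 3.58.1), other filters and scalings, thinning, a correction for transcript length and leaving out libraries were further alternatives. The code was also run on counts simulated from the blocked model itself. That run says nothing on the relation with transcript length or on the experiment 1 library of the combination.

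Per-library values were given for up to 15 members that passed in any comparison with or without the block, by smallest blocked adjusted p, and for 10 members whatever their values: *NFE2L2*, *KEAP1*, *TXN*, *TXNRD1*, *HMOX1*, *NQO1*, *GCLM*, *SRXN1*, *SLC7A11* and *CAT*. Up to 6 other pathway genes were named by the same order. The members and lists were chosen with earlier results of these data known.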

Additional observations from a re-analysis of the deposited data

How the results depend on the processing

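Without the replicate block, 0 members were called in each of the 6 comparisons, and limma-voom, DESeq2 size factors in edgeR, a minimum of 10 counts in every library and fits of only the groups compared also called 0. DESeq2 without the block called 2 members for RGZ against vehicle (*PRDX6* and *SQSTM1*) and 2 for both compounds against RGZ (*TXNRD2* and *SQSTM1*), beside 2.23% and 2.35% of all genes, and no filter on low counts called 1 for RGZ against vehicle (0.889% of all genes). With the replicate block, edgeR called 9 members for RGZ against vehicle, 3 for T007 against vehicle, 8 for both compounds against RGZ and 12 for both against T007, and DESeq2 called 8, 3, 7 and 12, and 6 for both compounds against vehicle (6.63%, 0.843%, 7.92%, 6.51% and 1.68% of all genes with DESeq2). Thinned to the smallest total, the blocked fit called 10, 2, 8 and 11 (9.06%, 0.761%, 10.9% and 8.47% of all genes) in 1 random draw. After the correction for transcript length, added after seeing the data, it called 10, 7, 16 and 5, and 1 for both against vehicle (12.03%, 1.75%, 14.4%, 7.41% and 0.0902% of all genes).

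Leaving out 1 library without the block gave 0 to 1 members for RGZ against vehicle (1 without vehicle 2), beside 0.328% to 0.643% of all genes, and 0 in the other comparisons, beside at most 0.951%. With the block, in fits added after seeing the data, leaving out libraries 1, 2 and 3 in turn gave, for RGZ against vehicle, 7, 10 and 4 (vehicle) and 8, 4 and 5 (RGZ), and for T007 against vehicle 1, 0 and 0 (vehicle) and 1, 0 and 0 (T007). For both compounds against vehicle it gave 0, 15 and 0 (vehicle) and 1, 24 and 0 (combination), against RGZ 5, 6 and 5 (RGZ) and 8, 15 and 9 (combination), and against T007 3, 3 and 10 (T007) and 4, 21 and 2 (combination). The shares of all genes called in these fits moved as well, from 5.23% to 7.97% for RGZ against vehicle, 0.220% to 0.452% for T007 against vehicle, 0% to 19.0% for both compounds against vehicle, 6.25% to 18.9% against RGZ and 0.775% to 24.5% against T007. Leaving out experiment 1, 2 or 3 from every condition, the block called 9, 10 and 3 members for RGZ against vehicle, 1, 4 and 0 for T007 against vehicle, 0, 24 and 0 for both against vehicle, 6, 14 and 4 for both against RGZ, and 3, 17 and 1 for both against T007. Of all genes these fits called, in the same order of comparisons, 2.96% to 7.59%, 0.0740% to 0.944%, 0% to 19.6%, 3.798% to 16.6% and 0.133% to 16.4%. The calls kept in 3 of 3 of these fits were those of *MGST1*, *SQSTM1* and *HMOX1* for RGZ against vehicle, *MGST1*, *SQSTM1*, *NQO1* and *TXNRD2* for both against RGZ, and *MGST1* for both against T007. The interaction called 0 members in each alternative run.

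Of 38 results for single members in single comparisons, 5 changed sign in at least 1 alternative. The log2 fold changes in brackets, and the ranges on leaving out 1 library, are from the fit without the block. For RGZ against vehicle, *NFE2L2* (0.023) ranged from -0.060 to 0.11 on leaving out 1 library, and with the block was -0.00501 without vehicle 2, -0.0177 without vehicle 3, -0.0148 without RGZ 3 and -0.0357 without experiment 3. *KEAP1* (0.0092) ranged from -0.056 to 0.097, and with the block was -0.10 without vehicle 1, -0.081 without experiment 1 and -0.00252 with the length correction. *NQO1* (-0.062) ranged from -0.28 to 0.11 on leaving out 1 library, and *SRXN1* (0.072) was -0.0040 with the block without RGZ 2. *NQO1* changed sign only in fits without the block. For T007 against vehicle *MGST1* (-0.31) ranged from -0.65 to 0.11 without the block, above 0 without vehicle 2. The other alternatives kept the direction. The median level of the members in vehicle was 113 CPM with TMM and with DESeq2 size factors. The cause of these differences was not tested.

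With 3 experiments per condition and 8319455 to 11375227 counts per library, *GPX2* could not be tested, and a change of a member that did not pass is not shown to be absent.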
